A study of Mus musculus with 6 samples.

Results

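Microglia, the resident macrophages of the brain, and the myeloid signalling genes they share with blood macrophages were followed in ribosome-bound and unbound RNA of the mouse habenula. The 33 genes were taken from a list by name, and the probe set of each was found by its Entrez gene identifier among 17306 probe sets that are not controls. All 33 had a probe set. Expression had been measured on 6 Affymetrix arrays. The 3 IP arrays hold RNA pulled down with tagged ribosomes of medial habenula cholinergic cells. The 3 UB arrays hold what stayed unbound in these preparations. All 6 came from dissected habenulae of adult mice of 6 to 12 weeks of the BAC transgenic line Chat DW167. In such a line, made for translating ribosome affinity purification (TRAP), the choline acetyltransferase gene's regulatory region drives a tagged ribosomal protein. The transgene is thus shared by IP and UB, and a pull-down from mice without it was not analysed here. The labels describe UB both as total tissue RNA and as unbound cytoplasmic polysomal RNA, and do not say how many animals went into a preparation.

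Microglia survey the tissue through surface receptors, several of which signal through small adaptors with an immunoreceptor tyrosine-based activation motif (ITAM), chiefly Tyrobp (DAP12) and Fcer1g. ITAMs phosphorylated by Src-family kinases recruit kinases of the Syk family. The signal then reaches phospholipase C, Vav exchange factors and the actin cytoskeleton. Microglia are also the main source of complement C1q in the brain, where C1q takes part in the removal of synapses. Their survival depends on the receptor Csf1r, and their identity on the ETS transcription factor PU.1, encoded by Spi1.

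Of the 11 genes with signal on all UB arrays, 8 had none on any IP array. These were Csf1r, Tyrobp, Fcer1g, C1qb, Ly86, Selplg, Laptm5 and Aif1. That is 8 of the 12 tested genes, against 15.3% of all tested probe sets with no signal on any IP array. Nfam1, an ITAM-bearing receptor, showed the opposite pattern, with signal on every IP array and no UB array. C1qa, Grn and Coro1a had signal on all 6 arrays and were not called different. The other 21 genes were too dim to test, as were 48.2% of all probe sets that are not controls. The 21 include the microglial markers Cx3cr1 and Trem2 and the transcription factor genes Spi1 and Ikzf1.

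Levels are deposited log2 values, and an array with 50 or more on the linear scale (log2 5.64) counts as having signal. A probe set was tested if at least 3 of the 6 arrays reached that level, and 12 of the 33 genes passed. By limma with Benjamini-Hochberg adjustment over 8960 probe sets, 8 genes were called lower in IP and 1 higher, with 3 not called. Over all tested probe sets, 43.5% were called lower in IP, 30.9% higher and 25.5% neither. On the fitted log2 scale all 8 lower genes and Nfam1 differed by at least 2-fold, as did 28% (lower) and 14.3% (higher) of all tested probe sets. All IP arrays lay below all UB arrays for 8 of the 12, against 46.6% of tested probe sets, and above them for C1qa and Nfam1, against 33.4%. All 8 of those lower genes passed the filter through their UB arrays alone and Nfam1 through its IP arrays alone, so they had to differ, and the counts describe these genes without supporting anything further. The median log2 fold change of the 12 was -4.73, or -1.20 with genes dim in a fraction set to 50 there, against -0.17 and -0.15 over all tested probe sets. Where a fraction had no array at 50, the fold was computed against 50 and is given as at least that fold. IP and UB come from the same preparations. IP minus UB thus compares fractions and measures neither the number of cells of a type nor their RNA per cell.

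The promoters of 4 genes that parted between the fractions and hold a searched motif are shown as RefSeq gives them (GRCm38.p6, 250 bases before to 50 after the annotated start, 5′ to 3′ on the gene's strand). The set has C1qb and Laptm5, which had signal on all UB arrays and no IP array, C1qc, which had it on 2 UB arrays and no IP array, and Nfam1 at its outermost annotated start, for the opposite pattern. Capitals mark the ETS core GGAAGT and the PU.1-type sequence GAGGAAG on either strand, which overlap where GAGGAAG is followed by T.
C1qb, chr4:136886151-136886450, minus strand: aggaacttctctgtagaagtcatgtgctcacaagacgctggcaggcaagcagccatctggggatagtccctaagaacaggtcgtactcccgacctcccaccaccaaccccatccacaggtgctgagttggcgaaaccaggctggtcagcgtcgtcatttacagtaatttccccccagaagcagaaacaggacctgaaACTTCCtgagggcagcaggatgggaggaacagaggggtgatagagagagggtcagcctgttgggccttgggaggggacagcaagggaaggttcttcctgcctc
C1qc, chr4:136892865-136893164, minus strand: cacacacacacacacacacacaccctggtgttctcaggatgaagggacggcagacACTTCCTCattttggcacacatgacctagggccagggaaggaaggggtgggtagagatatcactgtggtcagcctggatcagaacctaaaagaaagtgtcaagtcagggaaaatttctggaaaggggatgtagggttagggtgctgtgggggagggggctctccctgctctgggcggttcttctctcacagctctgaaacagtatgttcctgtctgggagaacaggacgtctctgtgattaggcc
Laptm5, chr4:130913066-130913365, plus strand: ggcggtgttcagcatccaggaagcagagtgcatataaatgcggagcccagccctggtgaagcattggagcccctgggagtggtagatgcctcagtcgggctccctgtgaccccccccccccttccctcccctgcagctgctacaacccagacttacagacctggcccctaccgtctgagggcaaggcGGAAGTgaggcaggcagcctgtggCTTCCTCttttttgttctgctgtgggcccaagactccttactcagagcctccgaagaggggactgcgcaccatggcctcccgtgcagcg
Nfam1, chr15:83033348-83033647, minus strand: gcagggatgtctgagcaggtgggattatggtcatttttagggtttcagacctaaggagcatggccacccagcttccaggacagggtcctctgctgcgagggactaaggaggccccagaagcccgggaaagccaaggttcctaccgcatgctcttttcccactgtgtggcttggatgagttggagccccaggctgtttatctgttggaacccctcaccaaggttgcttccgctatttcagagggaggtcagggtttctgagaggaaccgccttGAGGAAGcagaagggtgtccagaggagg

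Of the 33 genes, 22 had at least 1 window in the promoter table, 29 windows in all. The ETS core was present in a window of 12 of these 22 genes (54.5%), against 26.5% of all 27025 genes with a window. The PU.1-type sequence was present in 9 of 22 (40.9%), against 15.4% of all genes. Either was found for 15 genes (68.2%), against 35.1% of all genes, and both for 6 (27.3%), against 6.27%. Inpp5d, Cd53, Laptm5, C1qc, Cd33 and Vav1 held both, and Nfam1 held the PU.1-type sequence in 1 of its 3 windows and no ETS core. Of the 8 genes called lower in IP, 5 had a window, and Fcer1g, Ly86 and Aif1 held neither sequence there. A match is a run of letters and no measured binding site. Spi1 itself was at 2.10 on all 3 IP arrays and at 2.12 on all 3 UB arrays, close to the lowest level of either fraction (2.10 in IP and 2.05 in UB), so its own transcript was not detectable on these arrays.

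**Figure D1:**
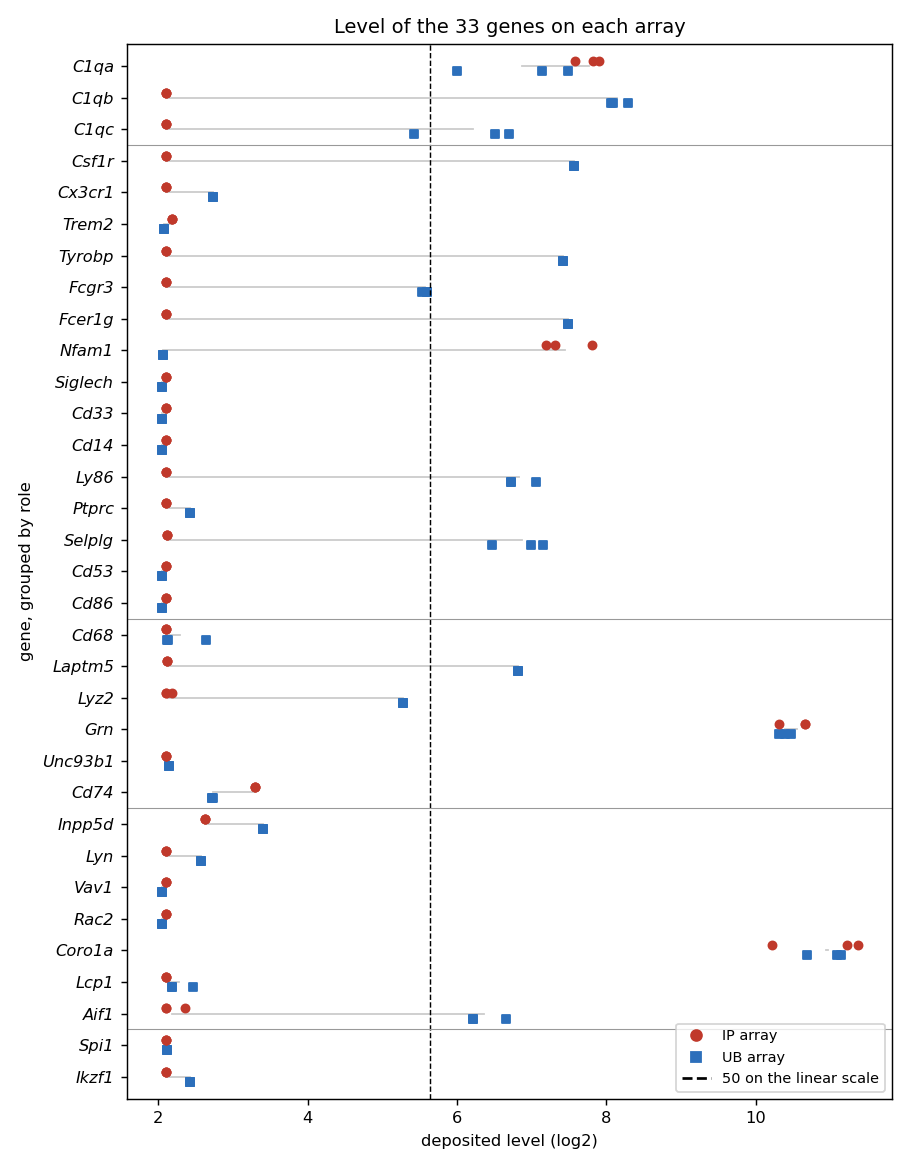
Deposited log2 level of the 33 genes on each array, grouped by role as in the text (complement, receptors and adaptors, lysosome and antigen presentation, cytosolic signalling and actin, transcription factors). Circles are IP arrays, squares are UB arrays, grey lines join the means, and the dashed line is 50 on the linear scale. Only C1qa, Nfam1, Grn and Coro1a lie to the right of that line in IP, while 11 genes do so on all 3 UB arrays.

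The 3 chains of complement C1q, whose genes are consecutive protein-coding genes in the RefSeq annotation, parted. C1qb (Entrez 12260) was at the lowest IP level, 2.10, on all 3 IP arrays, against 8.06, 8.29 and 8.09 on the UB arrays. It was at least 5.72-fold lower in IP (log2 fold change -6.06 ± 0.07, SE, adjusted p = 1.20e-07, limma). C1qc (Entrez 12262) was also at 2.10 on all IP arrays, against 5.42, 6.51 and 6.70 in UB. With only 2 arrays at 50, C1qc was not tested, and its IP arrays all lay below its UB arrays.

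C1qa (Entrez 12259) was at 7.58, 7.83 and 7.90 in IP, against 6.00, 7.49 and 7.14 in UB. All 3 IP values lay above all 3 UB values. The difference was 0.88 ± 0.43 on the log2 scale and was not called (adjusted p = 0.120, limma). Its size rested on preparation 1, where IP exceeded UB by 1.57, while preparations 2 and 3 gave 0.33 and 0.75. Without UB replicate 1 the difference was 0.27. C1qa was called higher under 4 other scalings, namely a control offset for each array, quantile normalization and medians made equal, over all probe sets or over tested ones (adjusted p 0.00166 to 0.0228; the 20 alternatives spanned 0.00166 to 0.308).

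The next protein-coding gene on the C1qa side, Epha8, an ephrin receptor, was named after its values were seen. It was at 6.19, 6.74 and 6.83 in IP and at 4.90 on all 3 UB arrays (log2 fold change 1.67 ± 0.18, adjusted p = 0.000888, limma). Probe positions within C1qa were not used here.

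Among the surface receptors, Csf1r (Entrez 12978), the receptor for colony-stimulating factor on which microglia depend, was at 2.10 on the 3 IP arrays and at 7.56 on the 3 UB arrays. It was at least 3.82-fold lower in IP (adjusted p = 9.63e-13, limma). Tyrobp (Entrez 22177), the ITAM adaptor of Trem2, was at 2.10 in IP against 7.42 on all UB arrays, at least 3.47-fold lower (adjusted p = 9.62e-13). Fcer1g (Entrez 14127), the ITAM chain shared by Fc receptors, was at 2.10 in IP and 7.49 in UB, at least 3.62-fold lower (adjusted p = 9.62e-13). These 3 receptor and adaptor genes had 1 value on all arrays of a fraction, to the 2 decimals given, so the arrays show no measured spread for them and their small p-values rest on the variance that limma borrows across probe sets.

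Ly86 (Entrez 17084), which encodes the MD-1 partner of the receptor CD180, was at 2.10 in IP against 6.72, 7.06 and 6.72 in UB. It was at least 2.31-fold lower in IP (log2 fold change -4.74 ± 0.10, adjusted p = 1.57e-06, limma). Selplg (Entrez 20345), the selectin ligand PSGL-1 of leukocytes and microglia, was at 2.12 in IP against 6.46, 7.15 and 6.99 in UB, at least 2.36-fold lower (-4.76 ± 0.19, adjusted p = 1.70e-05). For both genes the fractions did not overlap, and UB replicate 2 was the highest array.

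Trem2, the lipid-sensing partner of Tyrobp, was at 2.18 on every IP array and 2.08 on every UB array, so it was not detectable in either fraction. The Fc receptor gene Fcgr3 was just under the level for signal in UB, at 5.60, 5.53 and 5.60, against 2.10 on all IP arrays. The fractalkine receptor gene Cx3cr1 stood at 2.10 in IP against 2.73 in UB. Ptprc, the leukocyte phosphatase CD45, stood at 2.10 in IP against 2.42 in UB. The sialic acid-binding lectins Siglech and Cd33, the endotoxin coreceptor Cd14, the tetraspanin Cd53 and the costimulatory ligand Cd86 were all at 2.10 in IP and 2.05 in UB, which is the lowest level of each fraction to the 2 decimals given. A difference of that size is the difference between the lowest levels, and no fold is given for these receptors.

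Nfam1 (Entrez 74039) encodes a receptor of myeloid and B cells that carries its own ITAM and activates the transcription factor NFAT. It was at 7.19, 7.32 and 7.81 on the IP arrays and at 2.07 on all 3 UB arrays. The fractions did not overlap, and IP minus UB was 5.11, 5.23 and 5.72 in the 3 preparations. Nfam1 was at least 3.43-fold higher in IP (log2 fold change 5.36 ± 0.17, adjusted p = 7.29e-06, limma), and it was called higher under all 19 alternatives that tested it. As it passed the filter through its IP arrays alone, it had to differ, and these calls lend no further support. The alternative without tied probe sets did not test it. The kinase gene Syk, the NFAT gene Nfatc1 and the adaptor gene Hcst, named after their values were seen, were within 0.1 of the lowest level of each fraction. Nfatc2, the other NFAT gene of that list, was at 3.62 in IP against 4.10 in UB on every array, under the level for signal.

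Of the protein-coding neighbours of Nfam1 in RefSeq, Serhl was at 2.10 on all IP arrays and at 2.05 to 2.14 in UB. Tcf20, a transcriptional coregulator on the other side, was at 5.76, 4.85 and 4.85 in IP against 5.65, 5.15 and 5.18 in UB and was not tested. Both neighbours were named for their position alone.

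**Figure D2:**
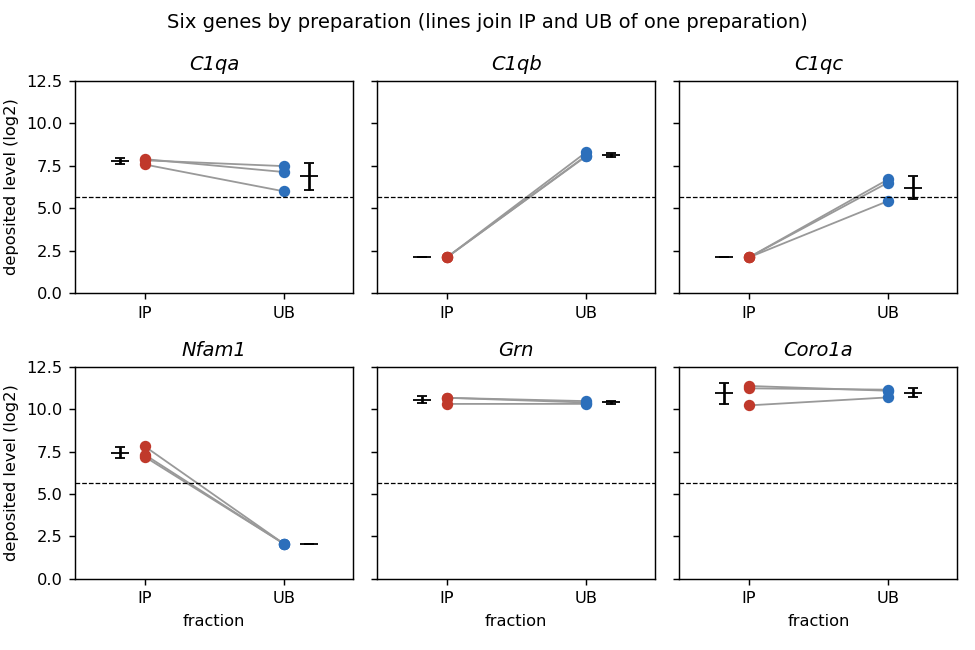
Deposited log2 levels of C1qa, C1qb, C1qc, Nfam1, Grn and Coro1a in IP (left) and UB (right). Points are arrays, lines join the IP and UB arrays of a preparation, bars beside them are mean ± SD (n = 3), and the dashed line is 50 on the linear scale. C1qb and C1qc drop to 2.10 in IP, Nfam1 stands at 7.19 to 7.81 in IP against 2.07 in UB, and C1qa, Grn and Coro1a stay above the line in both fractions.

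Of the lysosomal, endosomal and antigen-presenting genes, Laptm5 (Entrez 16792), a lysosomal membrane protein of blood cells, was at 2.12 on all IP arrays and at 6.81 to 6.82 in UB. It was at least 2.28-fold lower in IP (adjusted p = 1.98e-12, limma). Grn (Entrez 14824) encodes progranulin, a secreted lysosomal protein made by neurons as well as microglia. It was at 10.30, 10.67 and 10.67 in IP against 10.31, 10.39 and 10.47 in UB. The fractions overlapped, and the difference of 0.14 ± 0.12 was not called (adjusted p = 0.337). Grn was called higher without IP replicate 1 (0.32, adjusted p = 0.0106), and with medians made equal, over all probe sets or over tested ones (1.70 and 0.48, adjusted p = 5.03e-05 and 0.00662; the 20 alternatives spanned 5.03e-05 to 0.861).

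Lyz2, the lysozyme of macrophages, was at 2.18, 2.10 and 2.10 in IP against 5.28 on all UB arrays, under the level for signal. The macrophage lysosomal marker Cd68 was at 2.10 in IP against 2.12 to 2.65 in UB. Unc93b1, which escorts endosomal Toll-like receptors, stood at 2.10 in IP against 2.15 in UB. Cd74, the invariant chain of class II molecules, was at 3.30 on all IP arrays and at 2.72 to 2.74 in UB. Both fractions of Cd74 were under the level for signal and no fold is given.

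Of the cytosolic signalling and actin genes, Aif1 (Entrez 11629), which encodes the microglial actin-binding protein IBA1, was at 2.36, 2.10 and 2.10 in IP against 6.21, 6.66 and 6.21 in UB. It was at least 1.66-fold lower in IP (log2 fold change -4.19 ± 0.16, adjusted p = 1.39e-05, limma). Coro1a (Entrez 12721), the actin regulator coronin 1A of leukocytes, which neurons express as well, was at 10.22, 11.22 and 11.36 in IP against 10.69, 11.15 and 11.08 in UB. The fractions overlapped and the difference of -0.05 ± 0.36 was not called (adjusted p = 0.903). Coro1a was called higher under equal medians of all probe sets (1.51, adjusted p = 0.00715; the 20 alternatives spanned 0.00715 to 0.958).

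The remaining signalling genes were dim in both fractions. Inpp5d, the inositol phosphatase SHIP1 that limits ITAM signalling, stood at 2.62 in IP against 3.40 in UB. The Src-family kinase gene Lyn stood at 2.10 in IP against 2.58 in UB. Lcp1, the leukocyte plastin, was at 2.10 in IP and between 2.18 and 2.46 in UB. The exchange factor gene Vav1 and the leukocyte GTPase gene Rac2 were at 2.10 in IP and 2.05 in UB, the lowest levels. The lymphoid and myeloid transcription factor gene Ikzf1 was at 2.10 in IP and 2.42 in UB. In all, 26 of the 33 genes lay within 0.1 of the lowest level on every IP array, and 10 did so on every UB array.

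**Figure D3:**
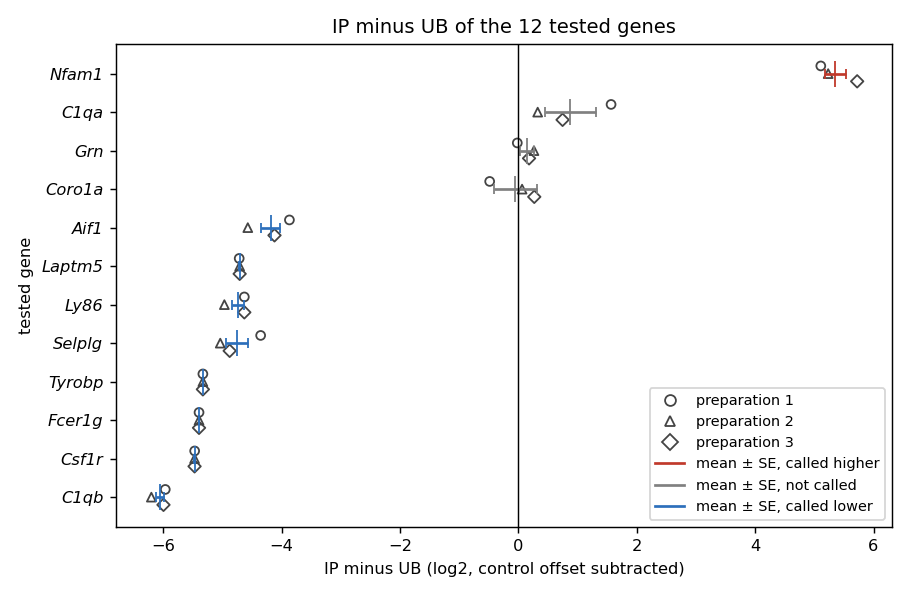
IP minus UB on the log2 scale for the 12 tested genes, after subtraction of the control offset. Open symbols are the 3 preparations and the tick with a bar is mean ± SE from limma, in red where called higher, grey where not called and blue where called lower. The 8 lower genes lie between -6.06 and -4.19, Nfam1 lies at 5.36, and C1qa, Grn and Coro1a lie between -0.05 and 0.88.

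Another 132 myeloid genes in 4 lists extend the pathway, and 125 had a named probe set. Of these, 29 were tested, 15 were called lower in IP, 8 higher and 6 not called, against 43.5% lower and 30.9% higher over all tested probe sets. Their median log2 fold change was -0.57, or -0.28 with dim fractions set to 50, against -0.17 and -0.15 over all tested probe sets. Of the 29, 11 were dim on all IP arrays and 2, Dock2 and Stat6, on all UB arrays, so these had to differ and the counts only describe the lists. Among 60 other microglia and macrophage genes with a probe set, only 6 were tested, with 5 called lower and 1 higher. Ctss, the lysosomal protease cathepsin S, was at 5.72 on all 3 IP arrays against 11.36, 11.38 and 11.38 in UB. As Ctss had signal on both sides, its fold was measured, and it was 50.9-fold lower in IP (adjusted p = 5.36e-10, limma). Apoe, a lipid carrier made by astrocytes and by microglia, was 87.3-fold lower (6.05 ± 0.01 in IP, 12.49 ± 0.51 in UB, SD, n = 3, adjusted p = 2.05e-05). The integrin gene Itgb5 was at least 1.35-fold lower, but not called once levels below 50 were set to 50 (adjusted p = 0.0596; its alternatives spanned 1.78e-51 to 0.0596).

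Defining microglial markers were under the level for signal even in UB. Tmem119 was at 2.10 in IP against 4.63 to 4.79 in UB, P2ry12 at 2.10 in IP against 4.18 in UB, Fcrls at 2.10 in IP against 5.16 in UB, and Itgam at the lowest level of both fractions. The 1 gene of that list called higher was Lst1, a leukocyte transcript, at 7.29, 7.22 and 6.65 in IP against 6.45, 6.49 and 6.27 in UB (1.55-fold, adjusted p = 0.0376, limma). The Lst1 call was lost under 8 of 20 alternatives, which were the per-array offset and 7 that left out arrays (adjusted p from 0.0533 to 0.260; its alternatives spanned 9.84e-05 to 0.260).

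Of 23 other ITAM and phosphoinositide signalling genes with a probe set, 5 were tested, and 4 were called lower and 1 higher. The adaptor gene Skap2 was at least 4.64-fold lower in IP (2.13 ± 0.04 in IP, 7.84 ± 0.79 in UB), and the phospholipase gene Plcg2 at least 1.66-fold lower. The linker gene Blnk was at least 1.39-fold lower, but not called once levels below 50 were set to 50 (adjusted p = 0.0671; its alternatives spanned 1.69e-44 to 0.0671). Bcl10, a signalling protein upstream of NF-kB that many cells make, was 1.22-fold higher (8.89 in IP on all arrays, 8.59 ± 0.08 in UB, adjusted p = 0.00309, limma). The Bcl10 call was lost with the per-array offset and without IP replicate 3 (adjusted p = 0.432 and 0.0527; its alternatives spanned 1.99e-06 to 0.432).

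Of 21 other haematopoietic actin and GTPase genes with a probe set, 13 were tested, and 3 were called lower, 4 higher and 6 not called. Dock2, a Rac activator known from leukocytes, was at 6.77, 6.86 and 6.86 in IP and at 2.36 on all 3 UB arrays, and was at least 2.25-fold higher in IP (adjusted p = 1.41e-08, limma). Vav3, the Vav family member also made by neurons, was 2.90-fold higher (11.59 ± 0.10 in IP, 10.04 in UB), whereas Vav1 was undetected. The actin-binding protein gene Cotl1 was 2.26-fold higher, a call lost without UB replicate 1 and without both arrays of replicate 2 or 3 (adjusted p from 0.0755 to 0.109; its alternatives spanned 0.000154 to 0.109). Arhgdib was at least 1.21-fold lower, the plastin gene Pls1 at least 2.09-fold lower and Dock10 3.23-fold lower.

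The list of other myeloid transcription factors had 21 genes on the array, of which 5 could be tested. Of those, 3 were called lower and 2 higher. Mef2c, a factor of microglia and of many neurons, was at least 7.33-fold lower in IP, the stress-response factor gene Nfe2l2 at least 3.68-fold and Tal1 at least 1.32-fold. Tal1 was not called once levels below 50 were set to 50 (adjusted p = 0.112; its alternatives spanned 9.82e-51 to 0.112). Stat6, the mediator of interleukin-4 signals, was at 5.87 on all 3 IP arrays and at 2.98 on all 3 UB arrays, at least 1.16-fold higher. Ikzf5, a relative of Ikzf1, was 1.59-fold higher (9.93 ± 0.26 in IP, 9.25 ± 0.18 in UB). Its call was lost without IP replicate 3, without UB replicate 1 and without both arrays of replicate 2 or 3 (adjusted p from 0.0569 to 0.155; its alternatives spanned 4.94e-05 to 0.155).

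**Figure D4:**
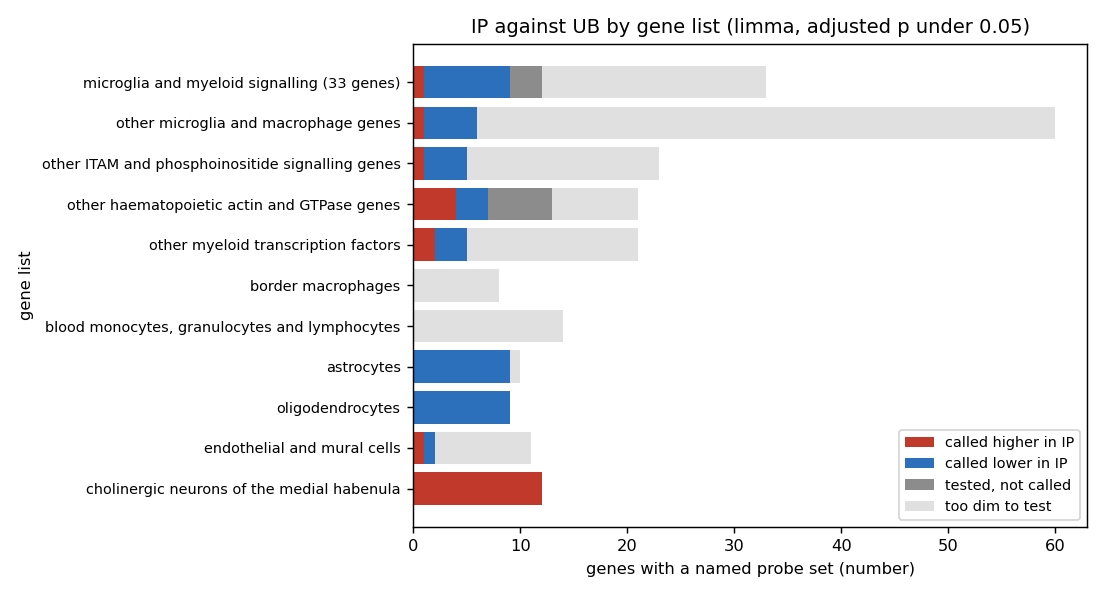
Number of genes per list that were called higher in IP (red), called lower (blue), tested and not called (dark grey) or too dim to test (light grey), by limma at an adjusted p under 0.05. Of the 33 microglia and myeloid signalling genes, 1 was higher, 8 lower, 3 not called and 21 too dim, and 0 of the border macrophage and blood lists could be tested.

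Across the series, 7533 to 7579 probe sets had signal on an IP array and 8618 to 8659 on a UB array, and the number of arrays limits the precision of every value. All 12 listed markers of cholinergic medial habenula neurons were called higher in IP, with Slc18a3 at least 68.8-fold, Chrna3 16-fold and Slc5a7 at least 1.57-fold higher. Of all tested probe sets, 30.9% were called higher and 43.5% lower. Slc18a3 and Slc5a7 were dim on all UB arrays and had to be higher. All 9 tested astrocyte markers were lower, S100b at least 29.8-fold, Slc1a2 at least 15.4-fold and Gja1 57.7-fold. All 9 tested oligodendrocyte markers were lower too, Mog at least 32.7-fold, Ermn at least 57.5-fold and Opalin at least 25.6-fold. In each of these glial lists 7 of the 9 were dim on all IP arrays and had to be lower. The linear levels of the astrocyte list summed to 1046 to 1395 in IP and 22744 to 27648 in UB. Those of the other microglia and macrophage genes, Apoe included, summed to 910 to 1007 in IP and 9292 to 13508 in UB. Apoe, Ctss and Cd83 made up most of that UB sum on every array. Cd83, named because the sum turns on it, had signal on all arrays and was called lower in IP (5.87-fold). The levels of the 33 genes summed to 2928 to 4854 in IP and 4395 to 5401 in UB, ranges that overlap. Grn and Coro1a, the brightest of the 33, made up most of these sums on every array. The receptors and adaptors among the 33 summed to 207 to 285 in IP and 823 to 902 in UB. Nfam1, the only one of them with signal in IP, made up most of that IP sum on every array. The C1q genes summed to 200 to 247 in IP and 373 to 584 in UB. C1qa, the only C1q gene with signal in IP, made up most of the IP sum on every array. Sums of the groups that hold Grn and Coro1a overlapped, and the transcription factor genes were dim in both fractions. Of 8 border macrophage genes and 14 blood cell genes with a probe set, 0 passed the filter. In the blood cell list, the lymphocyte markers Cd3e, Cd79b and Ms4a1 were at 2.18 or less on every array. Ltf of that list had signal on IP replicate 1 alone. Of 2 tested endothelial and mural genes, Acta2 was at least 4.96-fold lower and the adhesion gene Esam at least 4.09-fold higher, at 7.66, 7.68 and 7.74 in IP against 3.89, 3.76 and 3.75 in UB. Acta2 was dim on all IP arrays and Esam on all UB arrays, so both had to differ. Of that list's untested genes, Cldn5 was at 2.23 on the IP arrays against 5.09, 7.29 and 5.93 in UB. Slco1a4 was at 2.47 in IP against 5.74, 5.78 and 5.42 in UB. Pdgfrb, Rgs5, Cspg4 and Kdr also lay lower in IP, under the level for signal in both fractions. Pecam1, Flt1 and Tek were near the lowest level of each fraction. The part of other cell types in the levels of Nfam1, Dock2 and Esam was not tested.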

How the data were processed

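RNA of 3 IP and 3 UB fractions, numbered by preparation, was purified with Trizol, DNase and column cleanup and amplified over 2 cycles from 20 ng, per the labels' protocols. The deposited values are log2 levels made by the authors with GCRMA, per the submitters' processing notes, and replicates were normalized within groups, per the series' design text. For GCRMA's version and the genome build, nothing is given in the sources used here. The lowest value was 2.10 in IP and 2.05 in UB, so the fractions had been normalized apart, and 50.7% of probe sets in IP and 47.8% in UB had 1 value on all arrays. Of 17370 probe sets, 64 were controls and 16464 were named through the platform table. Lyn was named by its Entrez identifier.

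The mean difference of 18 biotinylated controls (0.016, SD over the controls 0.13) was subtracted from the IP arrays. The series' design text recommends scaling on such controls, though levels are printed as deposited. The mean control level varied more between arrays, at 11.55, 11.53 and 11.21 in IP and 11.75, 11.37 and 11.13 in UB. Tested were 8960 probe sets, with limma 3.58.1 in R 4.3.3 (trended prior variance, two-sided, no block). Of these, 2288 were not called, and 6859 had an unadjusted p under 0.05. Limma was also run on simulated data with independent noise and no pairing, which cannot vouch for p-values of paired arrays. The labels call the preparations biological replicates. P-values measure the spread between arrays of a fraction that was left after normalization within groups. For tied probe sets they rest on variance borrowed by limma. Without a block the main fit leaves out the pairing, so its p-values do not measure the spread of IP minus UB over preparations. Same-numbered fractions deviated together (correlations 0.59, 0.48 and 0.28), though IP replicate 3 correlated at 0.31 with UB replicate 2. The pairing comes from the labels. Promoter windows are RefSeq's. Tables and figures used Python 3.11.15, pandas 2.3.3 and matplotlib 3.10.9.

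The 33 genes and all lists were chosen with earlier results of these data known. Named were all 33, the 3 largest increases and decreases called in each other list, and genes the text says were seen first or that a result turns on. Alternatives were 20: scaling, filter, floor, ties, variance trend, block, and arrays left out.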

Additional observations from a re-analysis of the deposited data

How the results depend on the processing

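With each array, or both arrays of a replicate, left out, the number of the 33 genes called lower in IP stayed at 8 and the number called higher was 1 to 2. The 2 without IP replicate 1 were Nfam1 and Grn. For the other myeloid genes these ranges were 15 to 17 lower and 4 to 9 higher, with 4 higher without UB replicate 1 and without replicate 2, and for all probe sets 3080 to 4239 lower and 2053 to 3151 higher. In a fit with a replicate block, 8 of the 33 genes were lower and 1 higher, 15 and 9 of the other myeloid genes, and 3963 and 2911 of all probe sets, and the block changed no call of a named gene. Making the medians of all probe sets equal raised IP minus UB by 1.56 on the log2 scale, and 4 of the 33 genes, 15 of the other myeloid genes and 6680 of all probe sets were higher, and 1587 of all lower. The number of the 33 genes called higher was 3 with tested probe sets alone brought to equal medians (a shift of 0.34), 2 with quantile normalization (a mean shift of 0.37) and 2 with the control offset per array. With no filter on dim probe sets, 18 and 10 of the 33 genes were lower and higher, 48 and 66 of the other myeloid genes, and 5998 and 8557 of all probe sets. These include probe sets at the lowest level of both fractions, which differ by construction. With tied probe sets left out, 1 of the 33 genes (Aif1) was lower and 0 higher (Nfam1 is tied in UB and was not tested), 5 and 4 of the other myeloid genes, and 2123 of all probe sets lower. With the filter at 100, 6 of the 33 genes were lower and 1 higher, as Aif1 and Selplg were then too dim to test. Of the other myeloid genes, 8 were lower with that filter. Of the named genes, 2 changed sign. Coro1a was at 1.51 and 0.29 with equal medians of all and of tested probe sets, and between -0.38 and 0.37 with arrays left out, with values of 0.37 without IP replicate 1, 0.058 and 0.15 without UB replicate 2 and 3 and 0.058 without replicate 1. Grn was between -0.067 and 0.33 with arrays left out, at -0.029 without IP replicate 3 and -0.067 without UB replicate 1. The cause of these changes was not tested. In 770 other comparisons of a named gene with an alternative the direction and the call were kept, and a call was lost in 20 and made in 7, beside the call of Coro1a at 1.51. Signal over background limits the rest: 20 of the 33 genes had no array at 50.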

Other observations

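Some further immune genes, chosen after their values were seen, had signal on some IP arrays without passing the filter on dim probe sets. Csf2ra, a receptor chain for granulocyte-macrophage colony-stimulating factor, was at 5.01, 6.57 and 6.28 in IP and at 5.04, 5.43 and 5.04 in UB. F13a1, a coagulation factor chain made by border macrophages, was at 5.19, 5.91 and 5.91 in IP against 5.18, 5.46 and 5.18 in UB. Some other genes of the border macrophage list lay lower in IP, with Pf4 at 2.20, 2.22 and 2.20 in IP against 5.52, 6.36 and 5.70 in UB, and Mrc1 at 2.10 on all IP arrays against 4.66, 4.86 and 4.89 in UB. Cbr2 was at 2.10, 2.10 and 2.17 in IP against 2.91, 3.10 and 3.00 in UB, and Stab1 at 2.10 on all IP arrays against 3.34 on all UB arrays. Ltf, the lactoferrin of granulocytes, was at 6.18, 3.32 and 4.12 in IP and at 2.20, 2.05 and 2.05 in UB, so its signal came from IP replicate 1, while the granulocyte genes S100a8, S100a9, Ngp and Camp were at 2.11 or less on every array.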
